A study of Mus musculus with 36 samples.

Results

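The data described here compared laser-captured ductal epithelium of the fetal mouse mammary gland after exposure to ethinyl estradiol (EE2), a synthetic estrogen, with that after vehicle, in ERα(+/+) mice, labelled wild type. The members were chosen by their labels alone, as the epithelium arrays of wild type fetuses exposed to EE2 or vehicle, and were 6 of the 36 arrays of the series, 3 for each exposure. All came from the fourth inguinal glands of female C57BL/6 fetuses at E19. In the EE2 group an osmotic pump in the dam delivered 10 ng of EE2 per kg per day from E8 to E19, and in the vehicle group the pump delivered the dimethylsulfoxide solvent alone. The dams and sires were ERα(+/-). Each array held the epithelium of 1 gland of 1 fetus, with the 3 fetuses of a group from 3 litters. Where other groups are mentioned, ERα(-/-) epithelium (labelled ERKO, an ER-alpha knockout null) had the same EE2 and vehicle exposures with 3 arrays each, ERα(+/+) epithelium after bisphenol A (BPA, 250 ng per kg per day over the same days) had 3 arrays, and ERα(+/+) peri-ductal stroma after EE2 or vehicle had 3 arrays each. The dose per weight was expected to decline as the dams gained weight, and any response of the epithelium can include one relayed by the surrounding stroma or the dam.

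EE2 binds the estrogen receptors ERα and ERβ, nuclear receptors that bind DNA at palindromic estrogen response elements or act through other DNA-bound factors. In the fetal mammary gland the epithelium forms solid cords that branch into the mesenchyme and later hollow out to ducts, and exchange of Wnt, fibroblast growth factor and hepatocyte growth factor signals between the compartments guides this growth. In the postnatal gland, estrogen targets such as the progesterone receptor, amphiregulin and Wnt ligands relay the hormone signal within the epithelium.

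The arrays were Affymetrix mouse arrays, on which each of 45101 probe sets reports a transcript as a linear signal in arbitrary units. Array medians were 34.8, 27.2 and 25.5 after EE2, against 36.4, 10.9 and 38.2 after vehicle, so vehicle replicate 2 was dim. Signals of at least 100 were reached by 27.0% to 32.1% of probe sets after EE2, and by 32.7%, 18.8% and 33.6% after vehicle. The 3′ to 5′ ratio of the Gapdh control probe sets was 9.60, 12.9 and 6.03 after EE2, against 8.66, 11.2 and 10.3 after vehicle. That of the b-actin control probe sets was 0.986, 1.04 and 1.15 after EE2, against 0.783, 0.986 and 0.969 after vehicle. The paper states that such ratios of housekeeping genes did not exceed 2.0, which the Gapdh values here do. Log2 array medians differed by 0.22 (exact permutation test, two-sided, p = 1, where the smallest possible p is 0.1), and by −0.37 without the dim array. All values below were quantile-normalised over the 18 epithelium arrays unless the deposited scale is named, and log2 changes are EE2 minus vehicle. On the deposited scale the median of all probe sets shifted by 0.19, and that of all genes, at the brightest probe set of each, by 0.18. Arrays of the same exposure correlated at 0.772 to 0.801 after EE2 and at 0.710 to 0.810 after vehicle, and arrays of different exposure at 0.708 to 0.833. With 3 arrays a group, precision is limited.

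EE2 left few differences that exceeded the spread between litters. Only 1 probe set, for Spata16, a gene known for its role in spermatid formation, passed an adjusted p of 0.05 in limma (0.00222% of all probe sets). With 1 array left out, 2 to 17 passed, the most without vehicle replicate 3. At an unadjusted p under 0.05, 1638 probe sets were higher after EE2 (3.63%) and 1670 were lower (3.7%). These counts were 876 and 942 with the 6 arrays fitted alone, 852 and 888 with array weights, and 1783 and 989 without normalisation. The 3 EE2 arrays lay above the 3 vehicle arrays for 1776 probe sets (3.94%) and below them for 1916 (4.25%). On the deposited scale these counts were 1864 higher (4.13%) and 1212 lower (2.69%). The methods' t-test with a change of at least 2-fold selected 930 probe sets (2.06%), 425 higher and 505 lower, and 0 of them after Benjamini-Hochberg adjustment. Of the probe sets at an unadjusted limma p under 0.05, 1236 had a geometric mean signal under 32 in both the EE2 and the vehicle group.

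Spata16 rose after EE2 at a signal level near the bottom of the arrays. It had 11.9, 11.6 and 12.7 after EE2, against 0.631, 0.833 and 1.13 after vehicle, which is a log2 difference of 3.84 (limma, standard error 0.43, adjusted p = 0.00958), and it was singled out after its values were seen. All EE2 arrays lay above all vehicle arrays. In ERα(-/-) epithelium the same probe set had 2.88, 2.46 and 4.26 after EE2, against 3.57, 4.72 and 4.197 after vehicle. A brighter probe set of Spata16 had 8.14, 13.2 and 6.53 after EE2, against 3.47, 50.6 and 2.36 after vehicle, with overlap. The change was 0.76 when 16 was added to every value before the log, and the adjusted p from limma was 0.0847 without normalisation. Of 16 alternatives, 7 kept the call and 9 lost it, and the filter on dim probe sets left it out.

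Met, Tgm2 and Zyx were listed by the study as ERα-dependent genes of the epithelium on the basis of these arrays, so their values here are a description and not independent evidence. Met, the receptor of hepatocyte growth factor and a driver of ductal branching, had 1030, 1116 and 1311 after EE2, against 588, 424 and 321 after vehicle. The groups did not overlap, with a log2 change of 1.41 (standard error 0.55), and the adjusted p from limma was 0.606. Tgm2, a transglutaminase that crosslinks matrix proteins, had 850.1, 2002 and 734 after EE2, against 467, 732 and 92.4 after vehicle, a log2 change of 1.77 (SE 0.71, adjusted p = 0.609). The lowest EE2 array of Tgm2 lay just above the highest vehicle array. Zyx, a focal adhesion protein that senses tension and promotes actin polymerisation, had 359.8, 605 and 585 after EE2, against 759.5, 2214 and 1058 after vehicle. Zyx was lower on every EE2 array than on any vehicle array, with a log2 change of −1.27 (SE 0.47, adjusted p = 0.582). Over all alternatives the log2 change lay between 1.20 and 1.64 for Met, between 0.88 and 2.32 for Tgm2 and between −1.61 and −0.82 for Zyx, with no adjusted p below 0.335.

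The other probe sets of these genes gave less. Met had 1 other probe set, with a log2 change of 0.11 and overlap. Of the 5 other probe sets of Tgm2, 2 had the same sign, and the 3 brightest had −0.27, −0.18 and −0.13. The brightest of them had 1961, 2823 and 1793 after EE2, against 1744, 4790 and 1717 after vehicle, with vehicle replicate 2 the highest array. The other probe set of Zyx was dim and had a log2 change of 2.27 with overlap.

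Estrogen receptors bind DNA at known letters, and Met, Zyx and Wnt10b carry the comparison for receptor signalling, adhesion and bud signals. Of these, Wnt10b, described further on, had dim signals. The promoters of Met, Zyx and Wnt10b are shown because of these letters and roles. They are RefSeq windows of 300 bases, 250 before and 50 after the start of the gene, on the build GRCm38.p6. Capitals mark GGTCA or TGACC, either of which is one arm of the estrogen response element, and since each is the reverse complement of the other both strands were searched. Met lies at chr6:17463707-17464006 (plus strand), Zyx at chr6:42349578-42349877 (plus strand) and Wnt10b at chr15:98778101-98778400 (minus strand).
Met: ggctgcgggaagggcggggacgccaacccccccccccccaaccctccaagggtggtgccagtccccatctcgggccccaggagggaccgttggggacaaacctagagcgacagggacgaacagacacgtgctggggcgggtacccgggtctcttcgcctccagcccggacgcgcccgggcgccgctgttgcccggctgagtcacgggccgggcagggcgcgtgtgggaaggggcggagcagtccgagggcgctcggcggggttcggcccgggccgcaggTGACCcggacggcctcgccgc
Zyx: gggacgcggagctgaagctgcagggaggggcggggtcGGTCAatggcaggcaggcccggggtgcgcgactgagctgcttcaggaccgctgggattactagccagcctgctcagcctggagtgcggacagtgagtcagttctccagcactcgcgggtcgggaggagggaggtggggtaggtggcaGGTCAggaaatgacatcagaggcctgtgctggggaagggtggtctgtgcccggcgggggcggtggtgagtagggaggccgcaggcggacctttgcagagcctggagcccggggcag
Wnt10b: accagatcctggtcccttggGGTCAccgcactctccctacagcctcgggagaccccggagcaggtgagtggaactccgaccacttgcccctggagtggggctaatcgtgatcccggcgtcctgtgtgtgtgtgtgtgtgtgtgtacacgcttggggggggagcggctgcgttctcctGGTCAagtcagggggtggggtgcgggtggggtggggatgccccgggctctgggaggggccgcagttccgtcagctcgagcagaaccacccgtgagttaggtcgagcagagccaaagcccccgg
None of these windows held the palindrome GGTCANNNTGACC, which 23 of 32851 RefSeq mouse promoter windows held (0.0700%). An arm began at base 29 from the start in Met, at −213 and −66 in Zyx, and at −230 and −73 in Wnt10b. Such an arm is common, since 40.5% of all promoter windows held at least 1. Together with the leading genes described next and Tgm2 these are 24 genes, of which 16 matched a RefSeq window, 8 of them with an arm, 8 without one and 0 with the palindrome. These 16 genes had 19 windows, and a gene was counted if any of its windows held an arm, while the 40.5% is a share of windows. A match of letters is not a binding site, and no match says only that the letters are absent from this window.

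Of 34958 probe sets with 1 gene symbol, 372 were selected as higher after EE2 (368 genes) and 349 as lower (333 genes). The selection asked for a signal of at least 100 in the brighter group and a log2 change of at least 1. It also asked for groups that did not overlap, which alone held for 3.94% of all probe sets higher and 4.25% lower. The 10 genes of smallest p in each direction were taken as leading genes. None passed in limma, with adjusted p from 0.142 to 0.347 for the higher and from 0.278 to 0.347 for the lower genes. They were picked by these values, so what follows describes them. Ing5, a reader of histone methylation in acetyltransferase complexes, had 49.2, 591 and 114 after EE2, against 12.03, 1.81 and 1.81 after vehicle, a log2 change of 5.45 (SE 0.87, adjusted p = 0.142). The EE2 arrays of Ing5 spread widely, with replicate 2 far above the others. Med13, a subunit of the Mediator kinase module, had 501, 1743 and 347 after EE2, against 37.3, 118 and 5.38 after vehicle (log2 change 4.55, standard error 1.04). Hcfc2, a relative of the transcriptional coregulator host cell factor, had 150, 245 and 164 after EE2, against 28.9, 47.4 and 52.4 after vehicle, and its lowest EE2 array lay well above the vehicle arrays.

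The other leading higher genes had log2 changes from 1.58 to 4.44. Rab5b, a small GTPase of early endosomes, had 645, 205 and 223 after EE2, against 23.4, 5.50 and 22.2 after vehicle, a log2 change of 4.44. Phkg2, the catalytic subunit of phosphorylase kinase that starts glycogen breakdown, had 282, 252 and 262 after EE2, against 69.1, 115 and 88.2 after vehicle. Its groups were tight, with a log2 change of 1.58 (standard error 0.37), the least of these 10. Chst14, a sulfotransferase of dermatan sulfate, had 199.9, 516 and 350.1 after EE2, against 69.0, 60.4 and 112 after vehicle (log2 change 2.09). Zc2hc1a, a zinc finger protein, had 352, 292 and 185 after EE2, against 32.8, 19.6 and 35.6 after vehicle. Msto1, a protein of mitochondrial shape, had 117, 113 and 175 after EE2, against 16.8, 54.4 and 43.4 after vehicle. Kctd9 and the uncharacterised 4930451G09Rik complete the set with log2 changes of 2.20 and 3.22. Without normalisation between arrays all 10 genes kept groups that did not overlap, with adjusted p from 0.271 to 0.663.

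The leading lower genes had log2 changes from −5.89 to −2.53. Mkln1, muskelin, a subunit of a ubiquitin ligase, had 4.93, 21.2 and 4.40 after EE2, against 243, 551 and 58.3 after vehicle, a log2 change of −4.68 (SE 0.82, adjusted p = 0.278). Ube2f, the enzyme that conjugates NEDD8 to cullins, had 101, 19.7 and 72.7 after EE2, against 615, 306 and 351 after vehicle. Klhl20, an adaptor of a cullin ubiquitin ligase, had 22.2, 54.5 and 70.1 after EE2, against 158, 660.5 and 452 after vehicle, and Rnf10, a RING ubiquitin ligase, had a log2 change of −3.98. All of these lay lower on every EE2 array. Mbd1, a reader of methylated CpG, had 107, 110.4 and 191 after EE2, against 775, 899 and 619 after vehicle, a log2 change of −2.53 (SE 0.47, adjusted p = 0.302), and it had the highest mean vehicle signal of the lower genes. Pknox1, a homeodomain partner of Pbx proteins, had 13.2, 35.8 and 37.7 after EE2, against 166, 364 and 163 after vehicle. Git2, a regulator of ARF GTPases at focal adhesions, had 15.5, 18.7 and 10.0 after EE2, against 57.0, 195 and 142 after vehicle. Ttc30b, a protein of intraflagellar transport in cilia, had 50.3, 7.003 and 1.80 after EE2, against 117, 202 and 178 after vehicle, where EE2 replicate 1 lay apart from the other EE2 arrays. Ctsc, a lysosomal dipeptidyl peptidase, and Tpm2, a tropomyosin, had log2 changes of −5.60 and −5.89. All 10 genes kept separate groups on the deposited scale, with adjusted p from 0.299 to 0.612.

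**Figure D1:**
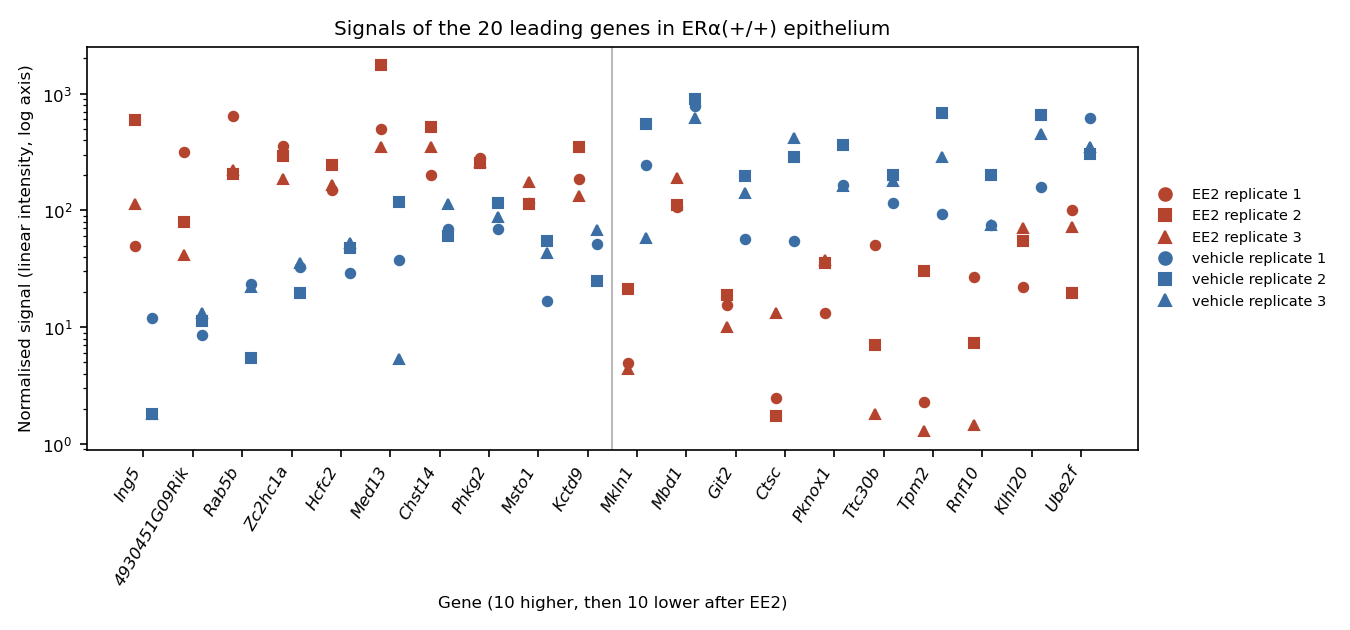
Normalised signal (linear intensity, log axis) of the 20 leading genes on each of the 6 arrays, the 10 higher after EE2 on the left and the 10 lower on the right. Each point is an array, its shape gives the replicate number, EE2 arrays stand left of vehicle arrays, and groups do not overlap for any gene because the choice required it. Phkg2 had the tightest EE2 arrays, at 252 to 282.

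Most leading genes rested on 1 of several probe sets. Of the 20 genes, 5 had a single probe set and 15 had others, and the probe set chosen was the brightest of its gene for 7. Among the 40 other probe sets, 24 had the same sign as the chosen one and 16 the opposite, and 3 had the same sign without overlap. All 3 were of Ube2f, where all 5 other probe sets were negative. One of them had 393, 93.5 and 249 after EE2, against 623, 466 and 433 after vehicle. But the brightest of Ube2f overlapped, with 280, 246 and 812 after EE2, against 731, 244 and 528 after vehicle. Its log2 change was −0.25, and 0.07 on the deposited scale. For Mbd1, 3 of 4 other probe sets were negative, the brightest other one with 87.7, 295 and 14.1 after EE2, against 528, 923 and 274 after vehicle. The groups of this Mbd1 probe set overlapped in EE2 replicate 2. Other genes went against their chosen probe set at higher signal. Ctsc had 435, 409 and 524 after EE2 at its brightest probe set, against 522, 133 and 871 after vehicle. For Med13 the brightest had a log2 change of −0.03. The brightest of Pknox1 was near 0 as well, at −0.02, with the sign of the chosen one. The brightest probe set of 4930451G09Rik was lower after EE2 without overlap (log2 change −0.74), the opposite of the chosen one. Opposite in sign, with overlap, were the brightest of Hcfc2 (−0.73), Mkln1 (0.79) and Git2 (0.15). A dim probe set of Git2 was higher after EE2 without overlap, against the chosen one. It had 38.7, 100 and 34.5 after EE2, against 27.1, 19.9 and 3.18 after vehicle (log2 change 2.09). For Ing5 the brightest had 0.67 with overlap, and another probe set had −1.96. The brightest of Tpm2 (−0.67), Rnf10 (−0.58), Rab5b (1.22) and Zc2hc1a (1.65) had the sign of the chosen one, with overlap and a smaller change.

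**Figure D2:**
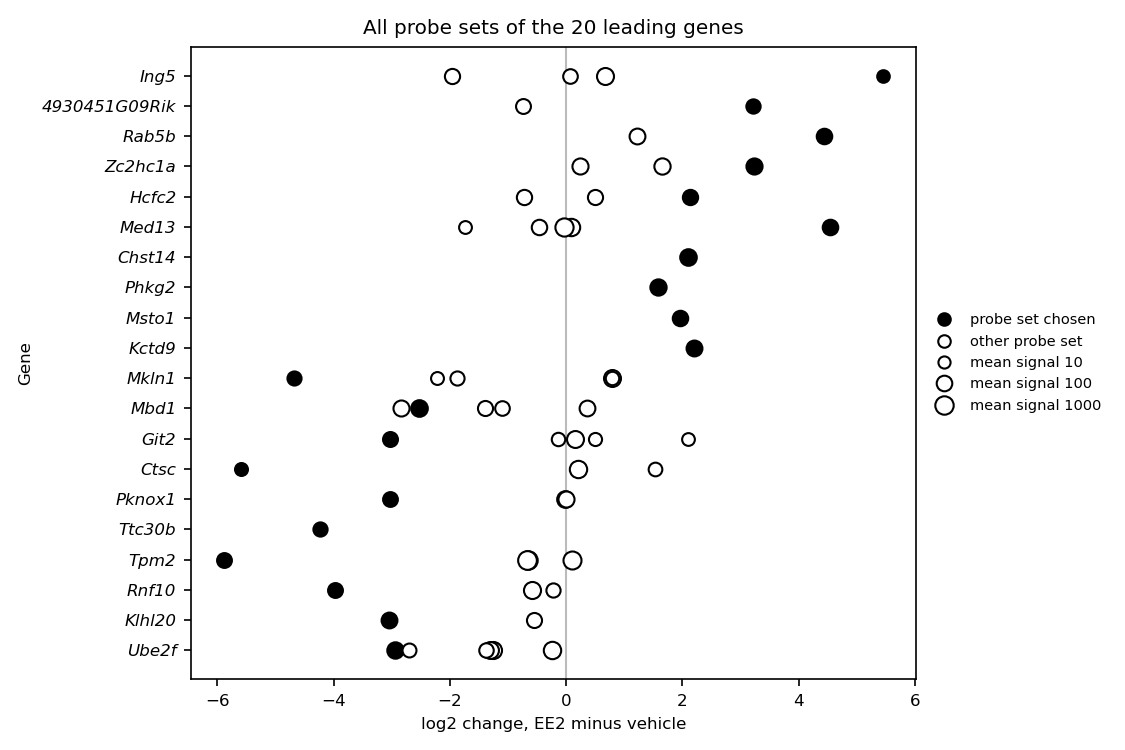
Log2 change (EE2 minus vehicle, normalised signal) of every probe set of the 20 leading genes. Filled points are the probe sets chosen, open points the others, and point size follows the mean signal. The open points of Ube2f lie at −2.71 to −0.25, while those of most other genes scatter around 0.

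The difference between the genotypes in the response to EE2 was tested as an interaction in limma. It passed for 1 probe set, Dnaaf6 (0.00222% of all), and had an unadjusted p under 0.05 for 2710 (6.01%). The Dnaaf6 call was lost in all 14 alternatives, with an adjusted p of 0.234 from limma with the replicate number as a block. The methods sampled 1 fetus of each genotype from a treated litter, so that ERα(+/+) and ERα(-/-) arrays can come from the same litters. Leading genes were chosen on the ERα(+/+) contrast, and their ERα(-/-) values are a description. The log2 change had the same sign in ERα(-/-) epithelium for 7 of the 10 higher and for 4 of the 10 lower genes. Met had 1236, 821 and 262 after EE2, against 583, 584 and 1639 after vehicle. All 3 study-listed genes overlapped between exposures in ERα(-/-) mice, with log2 changes of −0.36 for Met, −1.07 for Tgm2 and 0.00 for Zyx, and their interactions had adjusted p of 0.808, 0.756 and 0.843. Of the 20 leading genes, 7 had groups without overlap in ERα(-/-) epithelium, 4 in the same direction as in ERα(+/+) epithelium (4930451G09Rik, Hcfc2, Klhl20 and Med13) and 3 in the opposite one (Phkg2, Pknox1 and Ttc30b). Phkg2 had 127, 154 and 118 after EE2, against 304, 197 and 237 after vehicle, lower without overlap. Ttc30b had 49.2, 94.3 and 37.2 after EE2, against 11.3, 23.3 and 11.7 after vehicle, higher without overlap (log2 change 1.93). Med13 had 168, 318 and 93.0 after EE2, against 53.7, 28.1 and 20.4 after vehicle, which lay in the same direction as in ERα(+/+) mice, also without overlap. Over all probe sets, groups that overlapped in neither genotype were opposite in sign for 207 (0.459%) and alike for 266 (0.590%). The leading genes were required to be apart in ERα(+/+) epithelium, where 1776 probe sets were higher and 1916 lower without overlap. The 207 and 266 are among these, so the percentages of all probe sets are not the measure for 7 of 20.

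**Figure D3:**
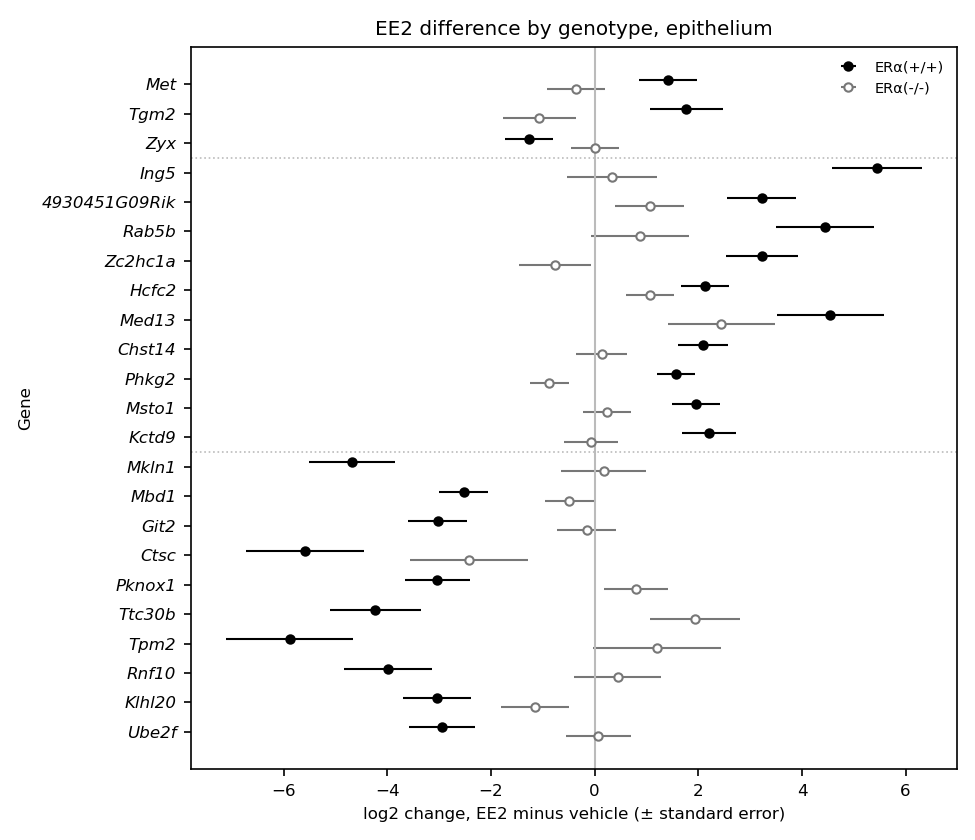
Log2 change (EE2 minus vehicle) in ERα(+/+) epithelium (filled) and in ERα(-/-) epithelium (open), with standard errors of the limma fit (n = 3 arrays a group), for the 3 study-listed genes and the 20 leading genes. The ERα(-/-) points lie between −2.43 for Ctsc and 2.45 for Med13, closer to 0 than the ERα(+/+) points of the same gene in every row, which the choice of genes favours.

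BPA and EE2 shared their vehicle arrays, so only levels are set side by side. After BPA, Met had 547, 586 and 666, Zyx had 759.5, 896 and 691 and Wnt10b had 2.04, 2.40 and 4.47. Ing5 had 9.04, 17.3 and 22.2 after BPA, below its 3 EE2 arrays. Other leading genes, picked here after their values were seen, differed from it. Chst14 had 268, 185 and 346 after BPA, and 159, 231 and 364 in ERα(-/-) epithelium after vehicle. Mbd1 had 257, 164 and 145, and 361, 179 and 144. For both genes all these arrays lay on the EE2 side of the ERα(+/+) vehicle arrays. Git2 had 74.6, 71.2 and 65.9, and 82.0, 61.2 and 123, within its ERα(+/+) vehicle range. In stroma captured around the ducts of ERα(+/+) fetuses, the log2 change of EE2 over vehicle had the same sign as in the epithelium for 3 of the 10 higher and 6 of the 10 lower leading genes.

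The study's own lists of ERα-dependent epithelial genes were drawn from these arrays and are not independent evidence of their direction. Of 114 genes measured from the list called higher, 17 were higher at an unadjusted p under 0.05 and 0 lower, against 3.26% higher and 3.13% lower over all genes, and 101 had a positive change. Their median log2 change was 0.60, with 0.53 on the deposited scale after subtraction of the all-gene median. Zbtb7a, a transcriptional repressor, had 897, 1483 and 1161 after EE2, against 205, 243 and 255 after vehicle, a log2 change of 2.31 (adjusted p = 0.441). Atp6v1a, a subunit of the proton pump of vesicles, had 1265, 1707 and 1104 after EE2, against 668, 195 and 664 after vehicle. No array of either gene crossed the other group. Of 29 genes of the lower list, 15 were lower and 0 higher at unadjusted p, with a median of −1.10 (−1.24 on the deposited scale, relative). Mbd1 led it. Zfp90, a zinc finger protein, had 102, 78.7 and 84.3 after EE2, against 336, 531 and 251 after vehicle (adjusted p = 0.41). Huwe1, a large ubiquitin ligase, had 876, 570.2 and 663 after EE2, against 1754, 1910 and 1078 after vehicle. In ERα(-/-) epithelium, which the study used to select these genes, the medians were 0.14 and −0.05.

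Receptors that could carry an estrogen signal overlapped between the exposures. Esr1, which encodes ERα, had 174, 35.6 and 36.5 after EE2, against 30.8, 5.14 and 70.7 after vehicle, and Esr2, which encodes ERβ, had 34.9, 9.09 and 33.4 after EE2, against 23.1, 71.6 and 9.40 after vehicle. Signals of both lay below 100 on all arrays except Esr1 on EE2 replicate 1. Gper1, a membrane receptor that responds to estrogen, had 71.2, 21.4 and 94.3 after EE2, against 42.5, 213 and 205 after vehicle. Pgr, the progesterone receptor and a classical target of ERα, had 108, 404 and 805 after EE2, against 321, 418 and 419.8 after vehicle. Its EE2 arrays spanned both sides of the vehicle arrays. Thra, a thyroid hormone receptor, had 447, 183 and 561 after EE2, against 268, 393 and 333 after vehicle, and Nr3c1, the glucocorticoid receptor, had 290.2, 262 and 816 after EE2, against 231, 633 and 499 after vehicle. Of 27 receptors and coregulators measured, 0 were higher and 0 lower at an unadjusted p under 0.05 (3.26% and 3.13% over all genes). Their median log2 change was −0.08 (−0.05 on the deposited scale, relative to all genes).

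Among 35 estrogen target genes, known mostly from adult tissue and breast cancer cells, 3 were higher and 1 lower at unadjusted p (3.26% and 3.13% over all genes), with a median of 0.20 (0.24 on the deposited scale, relative). Stc2, a secreted glycoprotein, had 1208, 644 and 649 after EE2, against 718, 212 and 138 after vehicle, and a single vehicle array reached into the EE2 range. Susd3, a membrane protein induced by estrogen in breast cancer cells, had 37.8, 58.4 and 54.4 after EE2, against 9.29, 10.0 and 28.2 after vehicle, without overlap. Cited1, a coactivator of ERα in the mammary gland, had 12.9, 94.2 and 5.09 after EE2, against 3.32, 2.43 and 0.554 after vehicle, without overlap after normalisation but with overlap on the deposited scale, at low signal, and EE2 replicate 2 lay far above the other EE2 arrays. The lower one was Wnt4, a ligand that acts downstream of progesterone, at dim signals. The adjusted p of these 4 genes lay between 0.606 and 0.679.

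In the list of mammary bud and Wnt genes, 0 of 43 were higher and 3 were lower at unadjusted p (3.26% and 3.13% over all genes). The 3 were Wnt10b, Wnt4 and Wnt10a. All were dim, with signals below 100 on every EE2 and vehicle array of ERα(+/+) epithelium. The filter on dim probe sets left all 3 out. Wnt10b, among the first markers of the mammary placode, had 2.38, 7.42 and 4.21 after EE2, against 24.6, 64.5 and 53.1 after vehicle, a log2 change of −3.38 (limma, standard error 0.76, adjusted p = 0.347). Every EE2 array was lower, and so it was in ERα(-/-) epithelium, where it had 0.936, 2.14 and 0.932 after EE2, against 8.77, 38.0 and 94.5 after vehicle. Over the alternatives its change ran from −3.80 to −1.57, the least with 16 added to every value, and its adjusted p was at least 0.190. Wnt4 had 26.6, 5.41 and 7.49 after EE2, against 52.1, 10.6 and 58.5 after vehicle and Wnt10a had 1.40, 2.67 and 1.61 after EE2, against 13.5, 5.88 and 1.93 after vehicle, with overlap in both. The median of the list was −0.12 (−0.16 on the deposited scale, relative).

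Receptor tyrosine kinase signals had 4 of 39 members higher and 2 lower (3.26% and 3.13% over all genes), with a median of 0.03 (−0.01 on the deposited scale, relative). Beside Met, these were Adam17, the sheddase that releases amphiregulin and other ligands of the epidermal growth factor receptor, with 698, 839.8 and 724 after EE2, against 537, 281 and 334 after vehicle, and the feedback inhibitor Spry4, with 928, 353 and 166 after EE2, against 189, 33.4 and 76.5 after vehicle. Adam17 separated the groups and Spry4 did not. Irs2, an adaptor of insulin receptors, had 201, 3.69 and 31.6 after EE2, against 4.83, 7.29 and 2.36 after vehicle, with EE2 replicate 1 far above the other arrays. The lower ones were Etv4 and Hgf. Etv4, a transcription factor induced by fibroblast growth factor and Met signals, had 49.5, 45.1 and 50.1 after EE2, against 369.5, 316 and 81.3 after vehicle. Its EE2 arrays lay close together, and vehicle replicate 3 was the nearest to them. Hgf, the ligand of Met, was dim, with 16.8, 9.20 and 18.3 after EE2, against 34.3, 59.9 and 22.6 after vehicle, lower without overlap. The adjusted p of these 6 genes ran from 0.577 to 0.677.

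Of 37 focal adhesion and cytoskeleton genes, 2 were higher and 2 lower, close to the 3.26% and 3.13% over all genes, with a median of −0.14 (−0.10 on the deposited scale, relative). Vasp, a partner of Zyx in actin assembly, had 858, 566 and 550.0 after EE2, against 474, 173 and 281 after vehicle, and Itgb3, an integrin subunit, had 396, 352 and 191 after EE2, against 155, 3.95 and 124 after vehicle. Both lay higher on all EE2 arrays after normalisation, and Vasp overlapped on the deposited scale. Bcar1, a docking protein of focal adhesions, had 204, 376 and 709 after EE2, against 676, 2359 and 771 after vehicle and was lower with overlap. Among 39 genes of the extracellular matrix and its crosslinking, 0 were higher and 1 was lower, Mmp3, a stromal matrix metalloproteinase, at a dim signal, and the median was 0.15 (0.16 on the deposited scale, relative).

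Of 34 genes of the BCL2 family, inhibitors of apoptosis and caspases, 1 was higher and 0 were lower, near the 3.26% and 3.13% over all genes. It was Birc2, an inhibitor of apoptosis that acts as a ubiquitin ligase on cell death signals, which had 636, 328 and 242 after EE2, against 173, 130.0 and 101 after vehicle, without overlap. Its log2 change was 1.49 (standard error 0.42, adjusted p = 0.477 from limma), and 1.10 to 1.86 over the alternatives, with an adjusted p of at least 0.283. In ERα(-/-) epithelium Birc2 had 240.2, 208 and 273 after EE2, against 227, 309 and 273 after vehicle. The study lists this probe set as raised by BPA against the same ERα(+/+) vehicle group, so the rise here is not independent of that result. After BPA it had 273.5, 268 and 337. These arrays and the ERα(-/-) vehicle arrays all lay above the ERα(+/+) vehicle arrays. The median of the list was 0.17 (0.17 on the deposited scale, relative). Cell death accompanies lumen formation in this gland, and of 34 genes of lumen formation and polarity 0 were higher and 0 lower, with a median of 0.08 (0.14 on the deposited scale, relative). In the list of luminal and progenitor transcription factors, 2 of 30 were higher and 0 lower (3.26% and 3.13% over all genes). Beside Cited1 this was Notch3, a receptor of luminal progenitors, with 428, 433 and 234 after EE2, against 157, 43.0 and 229.7 after vehicle. Here EE2 replicate 3 and vehicle replicate 3 nearly met, and the groups overlapped on the deposited scale. The median of this list was 0.25 (0.13 on the deposited scale, relative).

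Lists of broad cellular functions held few members past the unadjusted threshold, beside 3.26% higher and 3.13% lower over all genes. Of 39 Mediator and chromatin regulators, 1 was higher (Chd9, a chromatin remodeller) and 2 lower (Mbd1, and Med25, a Mediator subunit), with a median of −0.04 (−0.11 on the deposited scale, relative). Of 49 nuclear genes of oxidative phosphorylation, 0 were higher and 1 was lower, with a median of 0.06 (−0.12 relative). This was Sdhc, a membrane anchor of succinate dehydrogenase, which had 2319, 2247 and 2547 after EE2, against 4138, 5468 and 3964 after vehicle, a change of −0.92 at high signal without overlap. Of 39 cell cycle genes, 0 were higher and 1 was lower, with a median of 0.14 (−0.06 relative). It was Ccne2, a cyclin of S phase entry, with 62.5, 30.5 and 42.7 after EE2, against 99.9, 193 and 88.0 after vehicle. Among 35 immediate early and stress genes, 0 were higher and 2 lower, Atf3 and Gadd45b, both induced by stress, and the median was −0.03 (−0.07 relative). Atf3 had 64.1, 16.9 and 11.3 after EE2, against 59.6, 226 and 78.5 after vehicle, with overlap. Of 38 splicing factors, 1 was higher (Mbnl1) and 0 were lower, with a median of 0.01 (−0.17 relative). Of 33 cytoplasmic ribosomal protein genes, 32 adipogenesis genes and 20 cholesterol synthesis genes, 0 were higher and 0 lower at unadjusted p. Adipogenesis genes had a median of 0.25 (0.24 relative) and cholesterol synthesis genes −0.05 (−0.21 relative). Ribosomal proteins had a positive change in 28 of 33, with a median of 0.09, but of −0.10 on the deposited scale relative to all genes.

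**Figure D4:**
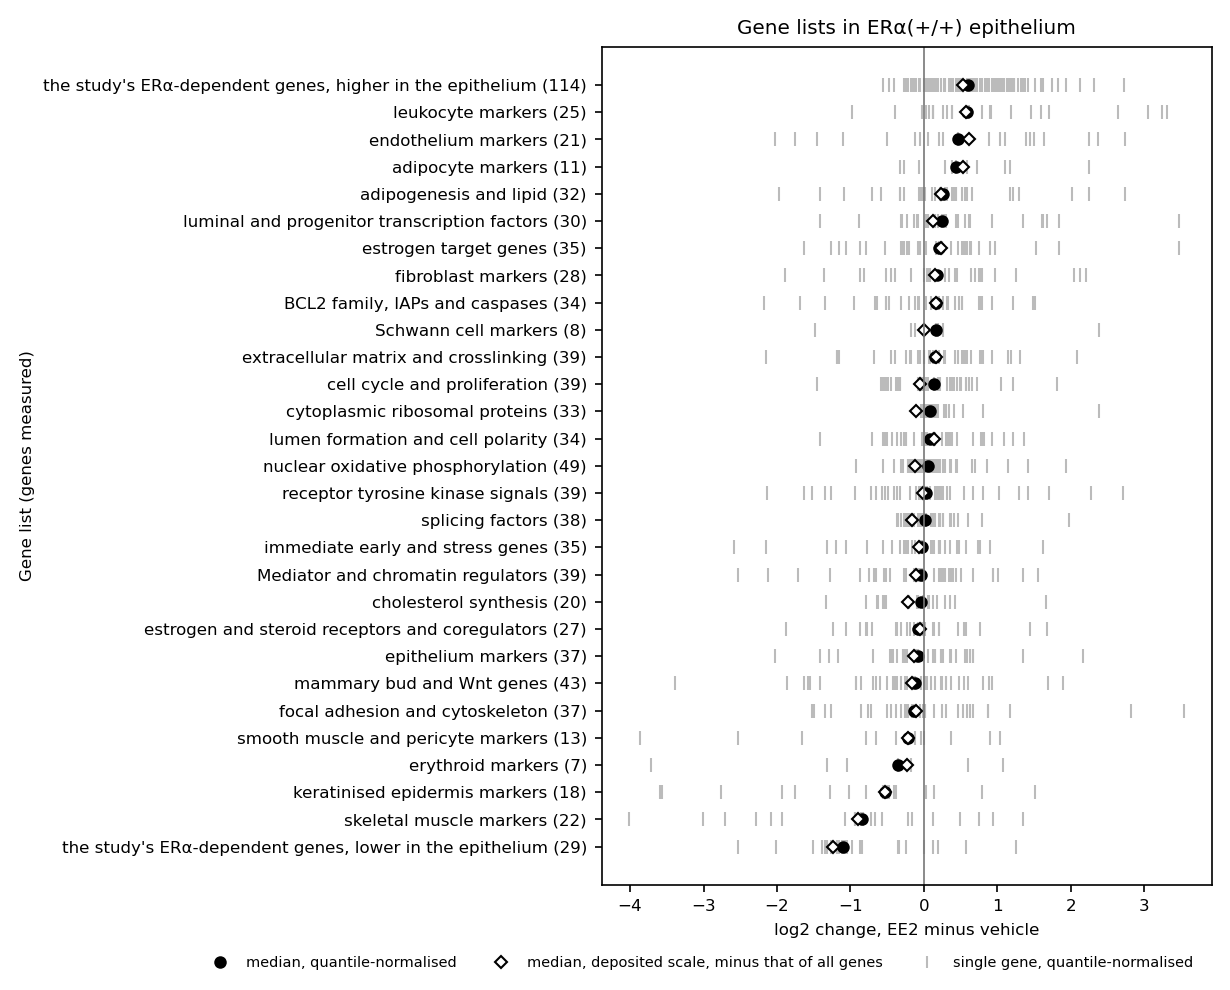
Log2 change (EE2 minus vehicle) of the genes of 29 lists in ERα(+/+) epithelium, ordered by the median. Grey ticks are genes at their brightest probe set, black points are medians on normalised values, and diamonds are medians on the deposited scale minus that of all genes. The study's own lists, chosen on these arrays, lie at 0.60 and −1.10, and the markers of other cell types spread from −0.84 to 0.59.

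The captured tissue carried the markers of its label. Krt8, a luminal keratin, had 2042, 1958 and 3243 after EE2, against 1975, 3145 and 1833 after vehicle, and Epcam, an epithelial adhesion molecule, had 4784, 5390 and 4280 after EE2, against 5422, 5780 and 2593 after vehicle. Krt14, a basal keratin, had 936, 646 and 1535 after EE2, against 665, 803 and 1063 after vehicle, and Cdh1, the epithelial cadherin, had 738, 1042 and 882 after EE2, against 1408, 306 and 971 after vehicle. All 4 were expressed on all arrays, with overlapping groups. Summed over 37 epithelium markers the normalised signal was 29290, 34400 and 39748 after EE2, against 36231, 38371 and 34833 after vehicle, and on the deposited scale the ERα(+/+) epithelium arrays had 26541 to 45011, with the stroma of the same genotype at 2249 to 13992. None of the 37 markers had an unadjusted p under 0.05. Fibroblast markers summed to 19658 to 69001 on these epithelium arrays on the deposited scale, against 66054 to 108816 in the stroma. Adipocyte markers summed to 5067 to 46476, against 37773 to 59002, so the highest epithelium sums of both lists lay within the stroma range. Leukocyte markers stayed below that range, at 1419 to 13191 against 21172 to 43874.

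Markers of other cells were present in differing amounts, and their part in the results was not tested. In such bulk samples, fewer cells of a type and less RNA per cell cannot be told apart. Col1a1, a fibroblast collagen, had 8319, 5204 and 5733 after EE2, against 3632, 3193 and 8847 after vehicle, and the 28 fibroblast markers summed to 56780, 37252 and 36860 after EE2, against 29379, 24906 and 67683 after vehicle. Leukocyte markers had a positive change in 22 of 25, with 2 higher at unadjusted p (Itgam and Laptm5, against 3.26% over all genes) and a median of 0.59 (0.58 on the deposited scale, relative). Their sum was 14309, 9253 and 7683 after EE2, against 6085, 2676 and 10547 after vehicle, with vehicle replicate 3 inside the EE2 range, and Tyrobp, an adaptor of myeloid cells, had 1352, 1020 and 362 after EE2, against 446, 1189 and 729.9 after vehicle. Skeletal muscle markers went the other way, with a negative change in 17 of 22 and a median of −0.84. Their sum was 1980, 2222 and 1367 after EE2, against 4235, 3278 and 3519 after vehicle, and Tpm2, one of the leading genes, carried much of it at its brightest probe set. Without Tpm2, a choice made after the values were seen, the other 21 summed to 575, 854 and 459 after EE2, against 3181, 663 and 963 after vehicle, with overlap and with vehicle replicate 1 far above the rest. None of these 22 had an unadjusted p under 0.05, and Acta1, the skeletal actin, was near the floor of the arrays except vehicle replicate 1, with 1.91, 1.53 and 6.85 after EE2, against 122, 5.50 and 8.27 after vehicle. No marker of any list was at 0 on these arrays.

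**Figure D5:**
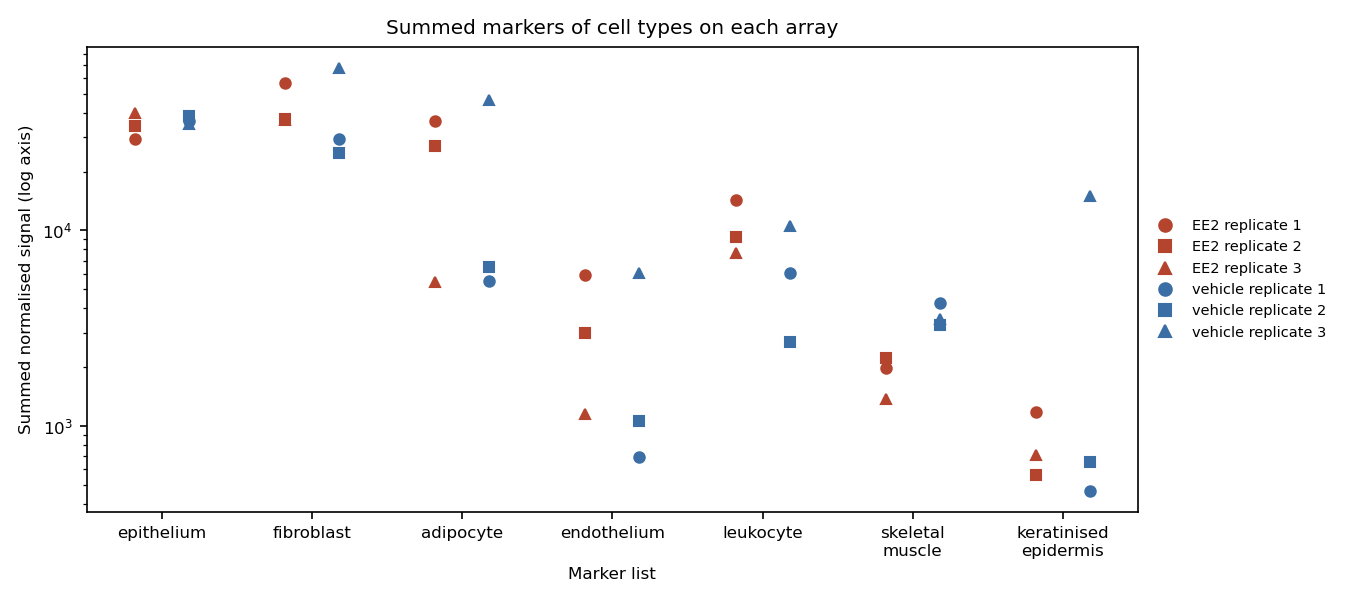
Summed normalised signal (linear intensity, log axis) of 7 marker lists on each array, with EE2 arrays left of vehicle arrays and shapes for the replicates. Epithelium markers lie within 29290 to 39748 on all 6 arrays, while adipocyte markers run from 5447 to 46471 and keratinised epidermis markers reach 15037 on vehicle replicate 3 alone.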

How the data were processed

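Fetal ductal epithelium was captured by laser from frozen sections of 1 gland a fetus, and its RNA was amplified and hybridised to Affymetrix 430 2.0 arrays. The deposited values are linear intensities, and the submitters' processing notes name GCOS. The methods describe RMA and a log step in Partek, but the deposited intensity values are not log values, and their scaling is not given in the sources used here. Values were raised to at least 0.1 (8 were 0 on the 6 arrays), taken to log2 and quantile-normalised over the 18 epithelium arrays. The change of EE2 over vehicle and its difference between genotypes were fitted with limma 3.58.1 (statmod 1.5.0) in R 4.3.3 on the means of the 6 epithelium groups, moderated by empirical Bayes, with p-values adjusted by the Benjamini-Hochberg method over the 45101 probe sets. P-values from limma measure the spread between fetuses within the 6 epithelium groups, pooled over these groups and moderated across probe sets. The 3 fetuses of a group came from separate litters, while fetuses of different genotype can share a litter. With the 6 compared arrays fitted alone, 0 probe sets passed an adjusted p of 0.05. The fit was tested on simulated data. GEO's platform annotation gave 1 symbol to 34958 probe sets (18194 symbols in all), more than 1 to 932 and no symbol to 9211.

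Named genes were Met, Tgm2 and Zyx at the probe sets the study lists, and for each direction the 10 genes of smallest p among probe sets with 1 symbol, a log2 change of at least 1, a geometric mean signal of at least 100 in the brighter group, no overlap and the same sign without normalisation. List members of smallest p, receptors and defining markers were added. In the lists each gene was represented by its brightest probe set. The members and lists were chosen with earlier results of these data known, and 2 lists are the study's own. Alternatives covered normalisation, an added 16, a filter at 32, the arrays fitted, array weights, a variance trend, a block for the replicate number, and each array left out. Listed genes that matched no probe set with 1 symbol were not analysed here.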

Additional observations from a re-analysis of the deposited data

Results flagged for a closer look

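Dnaaf6, which encodes an assembly factor of the dynein arms that move cilia, was the only probe set whose response to EE2 differed between the genotypes at an adjusted p under 0.05. It was singled out after its values were seen. In ERα(+/+) epithelium it had 9.54, 10.2 and 13.0 after EE2, against 2.42, 1.07 and 1.46 after vehicle, and in ERα(-/-) epithelium 1.43, 1.86 and 0.932 after EE2, against 5.31, 12.4 and 12.5 after vehicle. The EE2 arrays lay above the vehicle arrays in the first genotype and below them in the second, without overlap in either. The difference of the log2 changes was 5.59 (interaction in limma, adjusted p = 0.0486). All 12 signals lay at the dim end of the arrays. The difference ran from 1.23, with 16 added to every value, to 5.92 over 14 alternatives, and its adjusted p from 0.0524 to 0.712, so that none of them kept the call.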

How the results depend on the processing

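Counts at an adjusted p under 0.05 for EE2 against vehicle, 1 in the report, were 0 without normalisation, with arrays shifted to the same median, with 16 added to every value, with a filter at a mean signal of 32, with the 6 arrays alone, with all 36 arrays, with array weights, with a variance trend, and without both normalisation and vehicle replicate 2, and 1 with quantile normalisation over 36 arrays. The same alternatives, where run, gave 0 probe sets for the difference between genotypes. Leaving out each array in turn gave 2 to 17 calls, the highest without vehicle replicate 3 (Mkln1 and Spata16 among the 17) and 10 without vehicle replicate 1 (Ing5 and Spata16 among them), with 5 without EE2 replicate 1 (Ing5, Spata16 and Ttc30b among them), and 0 to 1 for the difference between genotypes. Spata16 was called in all of these 6 fits. The cause of these differences was not tested. At unadjusted p, 1431 to 2432 probe sets were higher and 1394 to 2143 lower when an array was left out. Lower ones were 989 without normalisation. The filter left 22570 probe sets, with 985 higher and 844 lower. The 6 arrays alone gave 876 and 942, array weights 852 and 888, and the deposited values without vehicle replicate 2 gave 837 higher and 2137 lower, against 1783 higher and 989 lower with it. So the balance of directions depended on the normalisation and on the dim array. The methods' t-test gave 743 without normalisation and 0 after adjustment on either scale. The log2 difference of the array medians was −0.37 to 0.54 when an array was left out, and negative only without vehicle replicate 2. List medians above 0, 17 of 29, were 11 with arrays shifted to the same median, 23 without normalisation, 14 to 19 with an array left out, and 5 without both normalisation and vehicle replicate 2. Groups that did not overlap fell to 1212 lower without normalisation. Over the named genes and alternatives, 973 values kept direction and side of the threshold, 23 lost the call, 4 gained it and 0 reversed.

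EE2 and vehicle groups share replicate numbers in the labels, but same-numbered arrays did not deviate together (r = 0.009, 0.055 and −0.027), so the numbers were not taken as pairs. With the replicate number as a block, 0 probe sets passed, 1673 were higher and 1692 lower at unadjusted p, 0 passed for the difference between genotypes, and Spata16 had an adjusted p of 0.0562 from limma.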

Other observations

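Markers of fat and vessels varied between arrays within each exposure. Adipoq, the adipocyte hormone adiponectin, had 2714, 2103 and 60.4 after EE2, against 102, 218 and 4630 after vehicle, and the 11 adipocyte markers summed to 36300, 27141 and 5447 after EE2, against 5523, 6478 and 46471 after vehicle. EE2 replicates 1 and 2 and vehicle replicate 3 were high, and the other arrays low. None of these markers had an unadjusted p under 0.05 in either direction, with a median log2 change of 0.43 (0.54 on the deposited scale after subtraction of the all-gene median). The 21 endothelium markers summed to 5935, 3001 and 1143 after EE2, against 691, 1057 and 6087 after vehicle, with the same 3 arrays highest, and Pecam1, an endothelial adhesion molecule, had 494, 5.97 and 63.6 after EE2, against 37.3, 35.5 and 399.7 after vehicle. Their median was 0.46 (0.62 relative), with 1 higher and 1 lower at unadjusted p (3.26% and 3.13% over all genes). Flt1, a receptor of vascular endothelial growth factor, had 216, 161 and 336 after EE2, against 45.5, 28.8 and 63.4 after vehicle, without overlap, and Eng, a coreceptor of transforming growth factor beta, had 162, 33.0 and 43.0 after EE2, against 65.3, 419 and 326 after vehicle, with overlap.

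Keratinised epidermis markers summed to 1172, 559 and 705 after EE2, against 466, 656 and 15037 after vehicle, so that vehicle replicate 3 stood far above the rest. Of 18 markers, 0 were higher and 2 lower at unadjusted p (3.26% and 3.13% over all genes). Their median was −0.53 (−0.53 relative, and −0.34 on the deposited scale as it stands). Ivl, a precursor of the cornified envelope, had 1.07, 4.83 and 4.02 after EE2, against 21.1, 78.7 and 21.99 after vehicle (log2 difference −3.59, limma standard error 0.69, adjusted p = 0.318). Krt77, an epidermal keratin, had 5.50, 16.1 and 6.25 after EE2, against 28.1, 27.6 and 27.8 after vehicle. Both were lower without overlap after normalisation, at dim signals, but Krt77 overlapped on the deposited scale, and in neither was vehicle replicate 3 the highest vehicle array. Of 13 smooth muscle and pericyte markers 0 were higher and 1 was lower, Cnn1, a contractile protein, with 0.722, 12.4 and 4.60 after EE2, against 20.02, 67.8 and 94.0 after vehicle and a list median of −0.22 (−0.22 relative, and −0.03 on the deposited scale as it stands). Of 7 erythroid markers 0 were higher and 1 lower (Rhag, median −0.35, and −0.24 relative). Of 8 Schwann cell markers 1 was higher and 0 lower (Cdh19, median 0.16, and 0.00 relative).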
